A study of Mus musculus with 6 samples.

Results

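The immunoglobulin and T cell receptor genes were examined in RNA from subcutaneous CT26.WT tumors, with V segments and constant regions counted as separate genes. The members were chosen by symbol and then by their measured counts. A row entered when its symbol was that of an immunoglobulin or T cell receptor V segment or constant region, and when its counts summed to 10 or more over the 6 tumors. This gave 79 members of the 55487 rows in the table. Of the 542 rows that matched by symbol, 323 had 0 counts in all 6 tumors. The summed count is thus a property of the choice and not a result. At the edge, 7 segments with 10 or 11 counts were just inside, such as Trbv20 and Igkv1-88, and 10 segments with 8 or 9 counts were just outside, such as Igkv13-84 and Trav6-1.

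CT26.WT cells come from a colon carcinoma of a BALB/c mouse. The wild-type cells grew under the skin of immunocompetent BALB/c mice, 4 weeks old when bought. Mice of the IFN-γ stimulation group received IFN-γ repeatedly through the tail vein, mice of the control group received PBS, and 3 tumors of each group were sequenced as total RNA. The RNA of a tumor mixes the tumor cells with every host cell in it, so fewer lymphocytes and less receptor RNA per lymphocyte cannot be told apart. Nothing in the labels says whether same-numbered tumors share a cage or a day.

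B cells and T cells each carry a receptor assembled from gene segments. A variable (V) segment is joined to a short joining segment, with a diversity segment in heavy and beta chains, and the joined exon is spliced to a constant region. In B cells the heavy chain comes from Ighv segments and the light chain from Igkv or Iglv segments, and class switching replaces the mu constant region (Ighm) by a gamma (Ighg) or alpha (Igha) one. Plasma cells, the antibody-secreting descendants of B cells, hold far more of this RNA than resting B cells. Alpha beta T cells use Trav and Trbv, and gamma delta T cells use Trgv and Trdv. Cells descended from 1 lymphocyte keep its V segments, so an expanded clone raises the count of its own segments.

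The V exons below belong to the segments on which the results on segment use turned. They were read from the GENCODE transcripts of mouse build GRCm38, 5′ to 3′ on the coding strand, and stretches over 300 bases are cut to their 3′ end. The first pair are neighbouring kappa segments annotated as pseudogenes, shown because one of them held the most kappa V counts in every tumor. Igkv17-134 lies at chr6:67720729-67721022 (minus strand) and its capitals mark the last TGT or TGC in any reading frame. Igkv14-134-1 lies at chr6:67711174-67711449 (minus strand) and its capitals mark the 2 stop codons of the reading frame that has the fewest.
Igkv17-134: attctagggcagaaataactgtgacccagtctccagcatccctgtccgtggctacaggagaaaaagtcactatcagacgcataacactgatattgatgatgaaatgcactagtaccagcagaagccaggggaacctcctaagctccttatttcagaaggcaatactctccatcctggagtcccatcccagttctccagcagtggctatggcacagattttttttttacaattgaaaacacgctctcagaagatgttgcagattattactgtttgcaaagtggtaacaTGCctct
Igkv14-134-1: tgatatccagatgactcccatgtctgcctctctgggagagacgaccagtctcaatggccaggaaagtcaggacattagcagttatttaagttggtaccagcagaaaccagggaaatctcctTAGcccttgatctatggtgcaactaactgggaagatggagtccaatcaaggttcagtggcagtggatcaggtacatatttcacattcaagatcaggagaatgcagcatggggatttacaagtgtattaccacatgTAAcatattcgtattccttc

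The next exons belong to segments that were the most abundant of their kind in 1 or more tumors. Capitals mark the last cysteine codon of the open reading frame, close to the place where the V segment joins the next segment. Igkv1-110 was read at chr6:68270968-68271267 (plus strand), Igkv15-103 at chr6:68437628-68437925 (plus strand) and Igkv14-111 at chr6:68256572-68256869 (plus strand). Trbv19 was read at chr6:41178749-41179048 (plus strand), Trbv31 at chr6:41557693-41557984 (minus strand), Trbv1 at chr6:40891591-40891885 (plus strand) and Trav7d-4 at chr14:52770101-52770392 (plus strand).
Igkv1-110: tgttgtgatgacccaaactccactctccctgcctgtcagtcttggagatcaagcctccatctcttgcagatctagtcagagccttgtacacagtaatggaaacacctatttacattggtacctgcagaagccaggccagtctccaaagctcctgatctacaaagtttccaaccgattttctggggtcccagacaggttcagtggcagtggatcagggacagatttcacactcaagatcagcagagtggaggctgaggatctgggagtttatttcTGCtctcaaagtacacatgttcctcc
Igkv15-103: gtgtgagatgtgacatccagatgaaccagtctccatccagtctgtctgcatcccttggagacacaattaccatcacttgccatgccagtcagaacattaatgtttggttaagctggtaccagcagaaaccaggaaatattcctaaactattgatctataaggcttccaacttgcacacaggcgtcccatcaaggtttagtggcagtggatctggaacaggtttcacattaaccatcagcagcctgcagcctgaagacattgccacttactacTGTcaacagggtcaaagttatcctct
Igkv14-111: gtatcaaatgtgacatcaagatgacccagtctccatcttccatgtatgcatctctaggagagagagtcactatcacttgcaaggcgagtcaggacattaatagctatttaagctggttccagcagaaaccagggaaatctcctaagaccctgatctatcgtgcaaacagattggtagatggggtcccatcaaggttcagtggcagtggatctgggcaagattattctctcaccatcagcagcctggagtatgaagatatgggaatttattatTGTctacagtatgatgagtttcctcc
Trbv19: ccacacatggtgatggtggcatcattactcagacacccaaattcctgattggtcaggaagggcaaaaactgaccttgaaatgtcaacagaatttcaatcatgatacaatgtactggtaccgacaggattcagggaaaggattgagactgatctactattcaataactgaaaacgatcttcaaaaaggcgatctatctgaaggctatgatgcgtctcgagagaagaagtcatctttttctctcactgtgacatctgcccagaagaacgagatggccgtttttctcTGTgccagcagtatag
Trbv31: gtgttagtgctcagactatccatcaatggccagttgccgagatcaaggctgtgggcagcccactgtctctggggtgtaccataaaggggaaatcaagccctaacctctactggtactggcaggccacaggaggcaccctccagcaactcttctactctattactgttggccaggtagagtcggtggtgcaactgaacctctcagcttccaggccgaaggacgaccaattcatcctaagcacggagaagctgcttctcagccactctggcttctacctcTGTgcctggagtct
Trbv1: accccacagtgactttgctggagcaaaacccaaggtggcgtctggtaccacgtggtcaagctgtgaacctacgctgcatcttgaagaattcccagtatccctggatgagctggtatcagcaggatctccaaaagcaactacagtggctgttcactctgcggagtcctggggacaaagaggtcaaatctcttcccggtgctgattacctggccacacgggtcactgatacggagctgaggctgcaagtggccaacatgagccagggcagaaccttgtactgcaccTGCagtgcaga
Trav7d-4: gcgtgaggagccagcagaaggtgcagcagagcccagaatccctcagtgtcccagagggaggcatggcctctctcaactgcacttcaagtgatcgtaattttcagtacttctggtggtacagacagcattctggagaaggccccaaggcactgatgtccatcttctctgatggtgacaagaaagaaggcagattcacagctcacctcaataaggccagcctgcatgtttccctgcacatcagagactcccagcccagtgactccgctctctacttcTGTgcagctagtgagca

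Of the 62 V members not annotated as pseudogenes, 61 had at least 1 reading frame without a stop codon over the V exon. The exception was Iglv3. Igkv17-134, annotated as a pseudogene, also had a frame with 0 stop codons, with 3 cysteine codons in it. An open frame alone does not show an intact segment, and whether this frame could encode a working V segment was not tested. Close copies limit how surely a read can be placed. The V exons of Igkv1-110 and Igkv1-117 were identical at 303 of 313 aligned bases (96.8%), those of Trav7d-4 and Trav7-4 at 291 of 292 (99.7%), and those of Iglv1 and Iglv2 at 296 of 305 (97.0%). The first exons of Trbc1 and Trbc2 differed at a single aligned position, with 374 of 375 bases identical. Over the exons of each member, 10 of the 79 shared more than 50% of their 50-base stretches with another gene, and 27 shared none. Trbv1, Trbv19, Trbv31, Igkv15-103 and Igkv14-111 were among the members that shared none.

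The tumors held 15759300 to 17559680 counts each, so 3 counts corresponded to 0.171 to 0.190 CPM, the count scaled to a fixed library total. CPM values below were scaled by TMM, which corrects for differences in library composition. The members together took 0.00982 to 0.0231% of the counts, with 2110, 3966 and 2471 counts in control tumors 1, 2 and 3 and 3953, 3726 and 1633 in IFN-γ tumors 1, 2 and 3. A pair of libraries stood apart. Male mice are named in the methods, but Xist, the RNA that silences an X chromosome in female cells, had 1 count in control 1 and 2324 to 5833 in the other 5 tumors. The sum of 4 Y-linked genes was 14 counts in control 1 and 0 in the others. IFN-γ tumor 3 held 75.7 CPM of a list of 6 skin keratinocyte genes, against 3.42 to 13.8 CPM in the other tumors. The part of host sex and of skin tissue in the results was not tested. Values without each of these tumors are given beside the class sums other than Trav, Ighv and Igkv, and beside the share of Ighm. Of 9 colon epithelium genes, Cdx2 was at 0 in every tumor, and the list summed to 171 to 191 CPM in the control group and 125 to 287 CPM in the IFN-γ group.

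Receptor RNA of alpha beta T cells was higher on average in the IFN-γ group and kappa and lambda light chain RNA was lower, but in every class the tumors of the groups overlapped. Sums over the members of a class are given as descriptions without a test. T cell receptor constant regions (Trac, Trbc1, Trbc2 and Trdc) summed to 16.7, 26.0 and 21.7 CPM in the control tumors and to 32.6, 42.0 and 12.4 CPM in the IFN-γ tumors. The means were 21.5 ± 4.64 and 28.99 ± 15.1 CPM (SD, n = 3 each). IFN-γ tumors 1 and 2 were thus above all controls and IFN-γ tumor 3 below all of them. The log2 ratio of the means was 0.43. It was 0.80 without IFN-γ tumor 3, but 0.065 when IFN-γ tumor 2 was left out and 0.28 without control 1.

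The same order of tumors held for the beta V segments (Trbv), with 4.77 ± 0.969 CPM in the control group and 6.82 ± 2.74 CPM in the IFN-γ group. Their log2 ratio of 0.52 was 0.80 without IFN-γ tumor 3, 0.40 without control 1 and 0.24 without IFN-γ tumor 2. Alpha V segments (Trav) summed to 0.708 ± 0.241 and 1.86 ± 1.003 CPM, on 8 to 44 counts a tumor. Their log2 ratio of 1.39 is no measure of the class, because Trav7d-4 and Trav8n-2 had 0 counts in every control tumor and entered only through the IFN-γ tumors. The members held 48.1% of all Trav counts, and the ratio was 0.86 over all Trav segments with 1 or more counts. Gamma and delta V segments summed to 1.03 ± 0.0457 and 0.873 ± 0.520 CPM. Their log2 ratio of -0.24 turned to 0.16 without IFN-γ tumor 3 and was -0.27 without control 1. Heavy constant regions of immunoglobulin summed to 88.7 ± 26.8 CPM in the control group and 104 ± 42.6 CPM in the IFN-γ group. The log2 ratio of 0.23 was 0.54 without IFN-γ tumor 3, 0.11 without control 1 and 0.038 without IFN-γ tumor 1. Light constant regions summed to 16.99 ± 9.04 and 14.5 ± 7.25 CPM. The log2 ratio of -0.22 turned to 0.14 without IFN-γ tumor 3 and was -0.54 without control 1. Lambda V segments (Iglv) summed to 1.95 ± 0.968 and 0.995 ± 0.541 CPM, with a log2 ratio of -0.97 that was -0.48 without control 1 and -0.57 without IFN-γ tumor 3. IFN-γ tumor 3 was the lowest of the 6 tumors for all of these classes but Trav. For Trav, its 0.741 CPM lay between the controls.

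**Figure D1:**
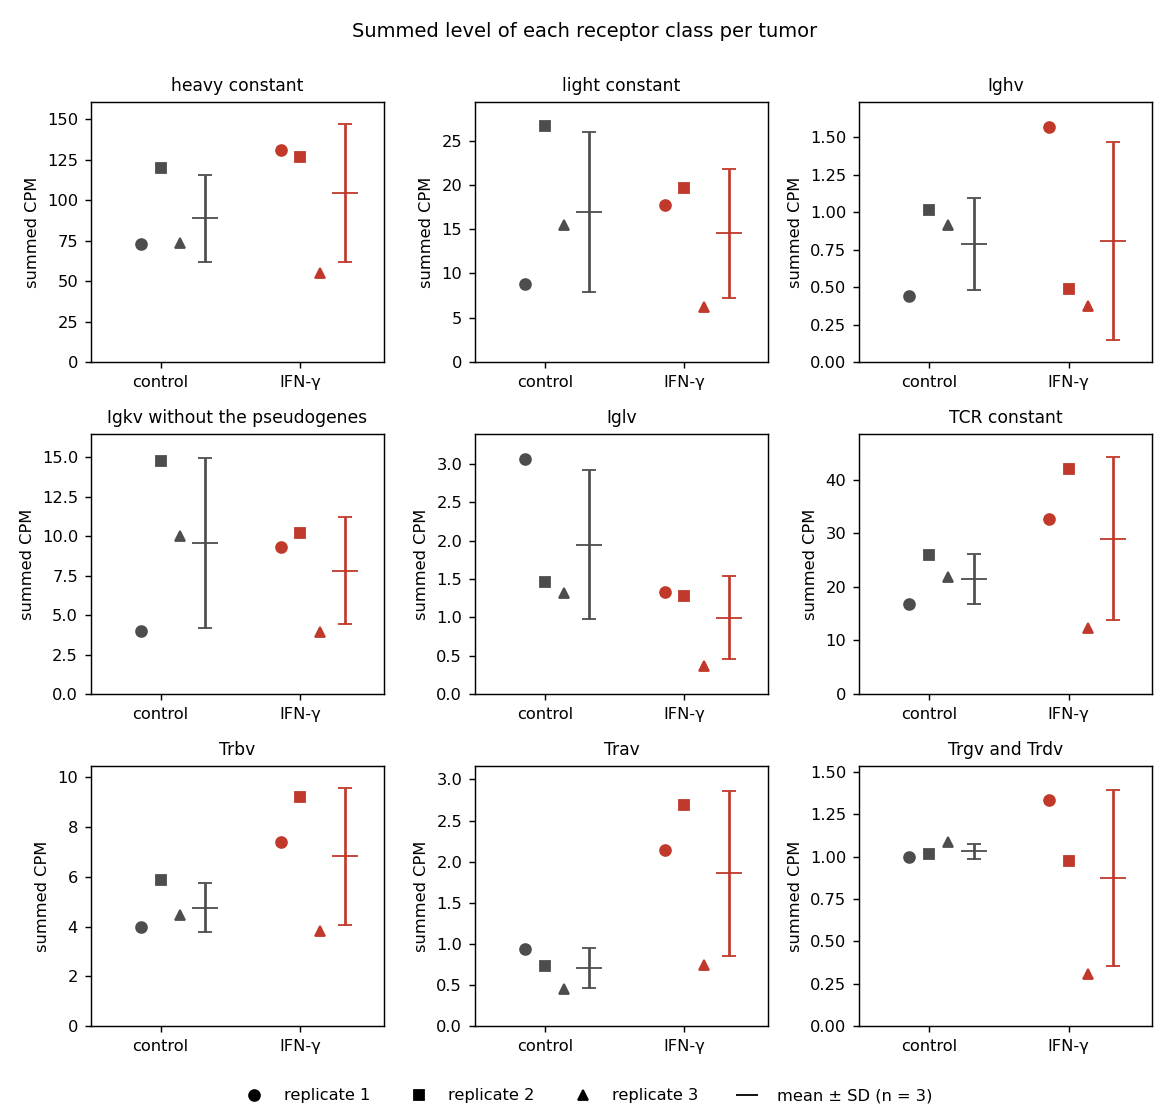
Summed CPM of the members of 9 receptor classes in each tumor, with the mean ± SD of each group (n = 3); all y axes start at 0 and differ in scale. The groups overlapped in every panel, and IFN-γ tumor 3 (red triangle) was lowest for the heavy constants at 55.3 CPM and for the T cell receptor constants at 12.4 CPM.

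Among heavy constant regions, Ighm had the most counts in every tumor, and its share was larger in the IFN-γ group. Whether these counts came from joined IgM heavy chains of B cells was not tested. The Ighv members amounted to only 0.00385 to 0.0124 counts per heavy constant count. Ighm, the constant region of IgM (chr12:113418558-113422730, minus strand, 7 exons), had 925, 1589 and 1033 counts in the control tumors and 1889, 1893 and 771 in the IFN-γ tumors. As a level, it did not pass the test, with 68.7 ± 18.0 CPM in the control group, 90.9 ± 37.6 CPM in the IFN-γ group (SD, n = 3) and a log2 fold change of 0.40 (SE 0.31, edgeR adjusted p = 0.73). As a share of all heavy constant counts, Ighm made up 79.3%, 74.8% and 80.1% in the control tumors and 83.6%, 91.0% and 86.1% in the IFN-γ tumors. The groups did not overlap in this share. The means were 78.1% ± 2.88 and 86.9% ± 3.76, a difference of 8.87 percentage points, which was 9.47 points without control 1, 9.26 points without IFN-γ tumor 3 and 6.82 to 10.5 points over all omissions of 1 tumor. Taken per kilobase of exon, the shares were 82.6% ± 2.38 and 89.7% ± 2.77 and did not overlap either. No test was made of a share over members. Ighm was the only 1 of the 7 heavy constants whose groups did not overlap in share, and its level in CPM did overlap. For levels in CPM, a measure unlike a share, groups did not overlap in 7.63% of the 15114 genes tested that were higher in the IFN-γ group. A further 7.5% were lower without overlap.

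The class-switched constants (Ighg1, Ighg2b, Ighg2c, Ighg3 and Igha) took the rest, apart from Ighd, the constant region of the IgD of naive B cells, at 0.797 to 1.71%. They made up 19.8%, 23.6% and 18.2% in the control tumors and 15.6%, 7.60% and 12.8% in the IFN-γ tumors, again without overlap. This follows from the share of Ighm and is no separate result. The switched isotypes were distributed differently in each control tumor. In control 1 the leading one was Ighg1, the IgG1 constant region, with 146 of 1167 heavy constant counts (12.5%, 95% Clopper-Pearson interval 10.7 to 14.5%). In the other 5 tumors Ighg1 took 0.612 to 3.10%. In control 2 the leading one was Igha, the IgA constant region, with 354 of 2125 counts (16.7%, interval 15.1 to 18.3%), against 3.34 to 7.99% in the others. In control 3 Igha took 7.99% and Ighg2b, the IgG2b constant region, took 7.37%. In each IFN-γ tumor Igha led, with 4.23 to 7.37%.

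None of the switched isotypes passed the test between groups. The log2 fold change was -0.79 for Ighg1 (SE 0.93, edgeR adjusted p = 0.83), -0.58 for Igha (SE 0.66, adjusted p = 0.82) and -0.69 for Ighg2b (SE 0.60, adjusted p = 0.76). For Ighg1 the difference in share rested on 1 tumor, at -2.94 points with all tumors and 0.868 points without control 1. For Igha it was -3.04 points with all tumors and 0.622 points without control 2. Ighg2c had 10, 12 and 0 counts in the control tumors and 7, 10 and 7 in the IFN-γ tumors. The row carries the name of the C57BL/6 gene, while BALB/c mice carry the related Ighg2a, so these counts cannot be read as the level of that isotype. Ighg3, the IgG3 constant region, had 6 to 17 counts a tumor and was below the filter of the test.

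**Figure D2:**
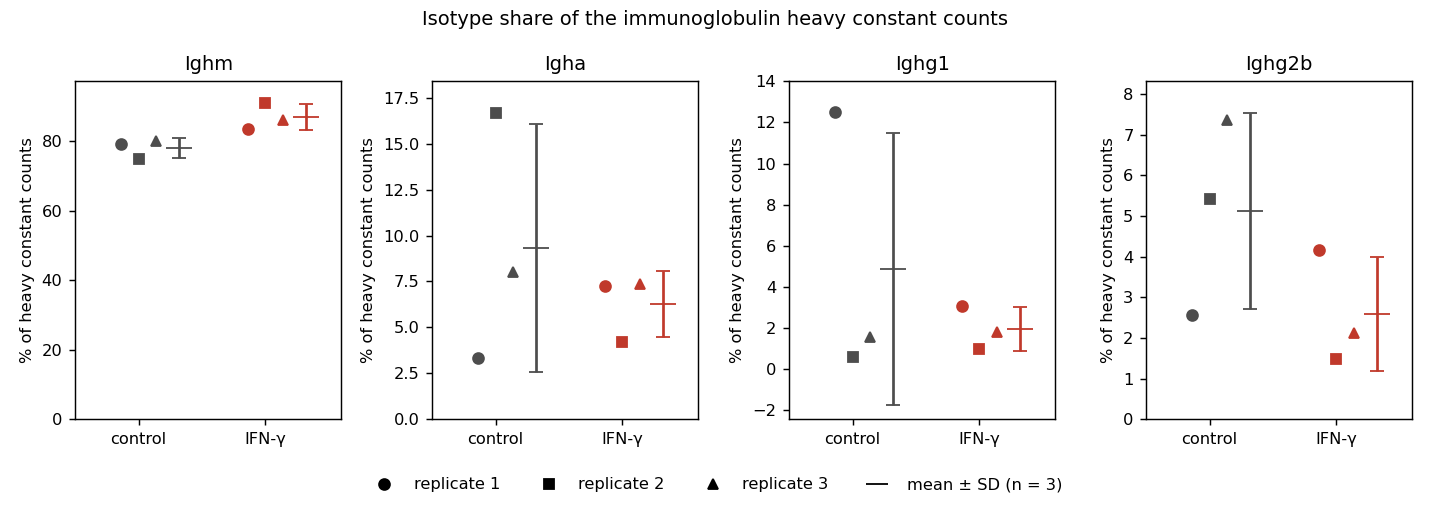
Share of Ighm, Igha, Ighg1 and Ighg2b in the heavy constant counts of each tumor, in percent, with the mean ± SD of each group (n = 3). The Ighm shares of the control group (74.8 to 80.1%) lay below those of the IFN-γ group (83.6 to 91.0%), and single control tumors set the high values of Ighg1 (control 1) and Igha (control 2).

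Kappa light chain RNA and the joining chain of secreted antibody were high and low in the same tumors. Igkc, the kappa constant region (chr6:70726435-70726966), had 112, 445 and 246 counts in the control tumors and 284, 290 and 94 in the IFN-γ tumors, with a log2 fold change of -0.21 (SE 0.50, edgeR adjusted p = 0.93). Control 2 was the highest and IFN-γ tumor 3 the lowest. Jchain, which links IgM and IgA into polymers and is made by plasma cells, had 56, 217, 107, 135, 125 and 26 counts in the same tumors. The ratio of Jchain to Igkc counts was 0.431 to 0.500 in 5 tumors and 0.277 in IFN-γ tumor 3. The 28 kappa V members without the pseudogenes also kept a narrow ratio to Igkc, from 0.567 to 0.715 counts per Igkc count over the 6 tumors. Ighm varied more against Igkc, from 3.57 to 8.26 counts per Igkc count.

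Lambda light chains stood out in the same control tumor as Ighg1. Iglc1, Iglc2 and Iglc3, the lambda constant regions, together took 20.6% of light constant counts in control 1 and 6.12 to 9.94% in the other tumors. Iglc1 had 20 of its 48 counts there. Iglv1, the main lambda V segment, had 46 counts in control 1, 14 and 16 in controls 2 and 3, and 22, 16 and 6 in the IFN-γ tumors. Its log2 fold change was -0.78 (SE 0.61, edgeR adjusted p = 0.73). Iglv3 had 2, 9 and 3 counts in the control tumors and 0 in each IFN-γ tumor. Of the 79 members, Iglv3 and Trbv13-3 were the 2 whose groups did not overlap in CPM, and both were below the filter of the test. Iglv3 entered only through the control tumors, so its lack of overlap is tied to the choice of members and is no result. Over all genes tested, the groups did not overlap in 7.63% that were higher and 7.5% that were lower in the IFN-γ group.

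The segment with the most kappa V counts in all 6 tumors was Igkv17-134, one of the pair annotated as pseudogenes. It had 266, 394 and 183 counts in the control tumors and 380, 207 and 262 in the IFN-γ tumors, or 47.4 to 75.7% of the counts of the 30 kappa V members. It did not scale with Igkc. Per kilobase of exon, Igkv17-134 was 1.09 to 4.26 times Igkc, with the highest ratios in control 1 and IFN-γ tumor 3, where Igkc was lowest. Its log2 fold change was 0.047 (SE 0.29, edgeR adjusted p = 0.98). The exons of Igkv17-134 overlapped no exon of another gene, and 6.69% of its 50-base stretches occurred in another gene. The neighbouring Igkv14-134-1 had 53, 70 and 27 counts in the control tumors and 46, 22 and 20 in the IFN-γ tumors, with a log2 fold change of -0.74 (SE 0.43, edgeR adjusted p = 0.61). That was the lowest adjusted p of any member. The count ratio of Igkv14-134-1 to Igkv17-134 was 0.148 to 0.199 in the control group and 0.0763 to 0.121 in the IFN-γ group, without overlap. It was 1 of 19 ratios and related quantities compared by tumor, a set that leaves out the isotype shares such as that of Ighm. It was the only one of the 19 without overlap, and it was not tested.

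Among the kappa V segments that were not pseudogenes, nearly every tumor had a different leading segment. In control 1 it was Igkv1-135 with 15 of 64 counts (23.4%, 95% Clopper-Pearson interval 13.8 to 35.7%). In control 2 it was Igkv1-110 with 65 of 262 counts (24.8%, interval 19.7 to 30.5%), against 0 to 15 counts in the other 5 tumors. In control 3 it was Igkv15-103 with 60 of 176 counts (34.1%, interval 27.1 to 41.6%), against 2 to 11 counts elsewhere. IFN-γ tumor 1 was led by Igkv14-111 with 27 of 161 counts (16.8%), and IFN-γ tumor 3 by Igkv10-94 with 17 of 64 (26.6%). IFN-γ tumor 2 had no such peak, with Igkv1-117 at 21 of 167 counts (12.6%) and Igkv6-15 at 20. The order of the last pair turned when counts were taken per kilobase of exon, while the leader stayed the same in the other 5 tumors. Igkv1-117 was the only one of these segments with 8 or more counts in every tumor.

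The spread over segments was summarised as the effective number, which is the number of equally used segments that would give the observed chance of drawing the same segment in a pair of reads. For the 28 kappa V segments it was 10.4, 8.92 and 7.11 in the control tumors and 14.6, 15.1 and 9.65 in the IFN-γ tumors. IFN-γ tumors 1 and 2 were above all controls and IFN-γ tumor 3 lay between them, with means of 8.82 ± 1.67 and 13.1 ± 3.01 (SD, n = 3). With the pseudogenes included, the direction turned, to 3.003 ± 0.953 and 2.51 ± 0.892, with Igkv17-134 then taking 47.4 to 75.7% of the counts.

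Heavy chain V segments had few counts beside their constant regions. Only 5 of the 185 Ighv rows entered, with 6 to 27 counts a tumor, and 44 had any count. Ighv3-6 had 22 counts over the 6 tumors, Ighv10-1 had 19, Ighv5-12 had 17, Ighv2-2 had 14 and Ighv5-17 had 10. The Ighv members amounted to 0.00385 to 0.0124 counts per heavy constant count, whereas the kappa V members without the pseudogenes reached 0.567 to 0.715 counts per Igkc count. The build named in the submitters' processing notes, mm10, represents the C57BL/6 strain and the mice were BALB/c, and how far strain differences in the V segments entered these ratios was not tested. Counts this low do not carry a comparison of Ighv use between groups.

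The T cell receptor constants were each higher on average in the IFN-γ group without passing the test. Trac, the alpha constant region, had 54, 74 and 83 counts in the control tumors and 109, 154 and 50 in the IFN-γ tumors, with 4.09 ± 0.686 and 6.27 ± 3.15 CPM (SD, n = 3). Its log2 fold change was 0.61 (SE 0.37, edgeR adjusted p = 0.63). Trbc2, a beta constant region, had 79, 170 and 130 counts in the control tumors and 237, 224 and 64 in the IFN-γ tumors (log2 fold change 0.51, SE 0.44, edgeR adjusted p = 0.76). For Trbc1 the log2 fold change was 0.27 (SE 0.41, edgeR adjusted p = 0.87). Trbc1 took 40.8 to 55.6% of the beta constant counts, a split that the close identity of the pair makes uncertain. Trdc, the delta constant region, had 33 to 37 counts in the control tumors and 54, 56 and 18 in the IFN-γ tumors (log2 fold change 0.30, SE 0.40, edgeR adjusted p = 0.85). Its exons overlap those of Trdv5 and Gm43434.

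Beta V use was led by Trbv1 in 3 tumors and by another segment in each of the rest. Trbv1 had 10, 17 and 14 counts in the control tumors and 39, 6 and 27 in the IFN-γ tumors. It made up 30.5% of beta V counts in IFN-γ tumor 1 and 43.5% of 62 counts in IFN-γ tumor 3 (interval 31.0 to 56.7%). The groups overlapped through IFN-γ tumor 2, and the log2 fold change was 0.84 (SE 0.58, edgeR adjusted p = 0.68). Trbv19 had 10, 7 and 7 counts in the control tumors and 13, 38 and 0 in the IFN-γ tumors. Its log2 fold change of 1.11 (SE 0.96, edgeR adjusted p = 0.76) was the highest of any tested member and rested on IFN-γ tumor 2, where it took 25.2% of beta V counts. Trbv31 had 6, 12 and 30 counts in the control tumors and 13, 6 and 0 in the IFN-γ tumors. It led control 3 with 38.5% of 78 counts (interval 27.7 to 50.2%), and its log2 fold change of -1.28 (SE 0.87, edgeR adjusted p = 0.68) was the lowest of any tested member. Control 1 was led by Trbv13-1 with 11 of 64 counts. The leader by counts was also the leader per kilobase of exon in all 6 tumors.

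The effective number of beta V segments was 9, 11.6 and 5.23 in the control tumors and 7.01, 8.68 and 4.13 in the IFN-γ tumors. The means were 8.62 ± 3.21 and 6.60 ± 2.30 (SD, n = 3), and the groups overlapped. Beta V counts followed the beta constants, at 0.293 to 0.360 counts per Trbc count in 5 tumors and 0.470 in IFN-γ tumor 3.

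**Figure D3:**
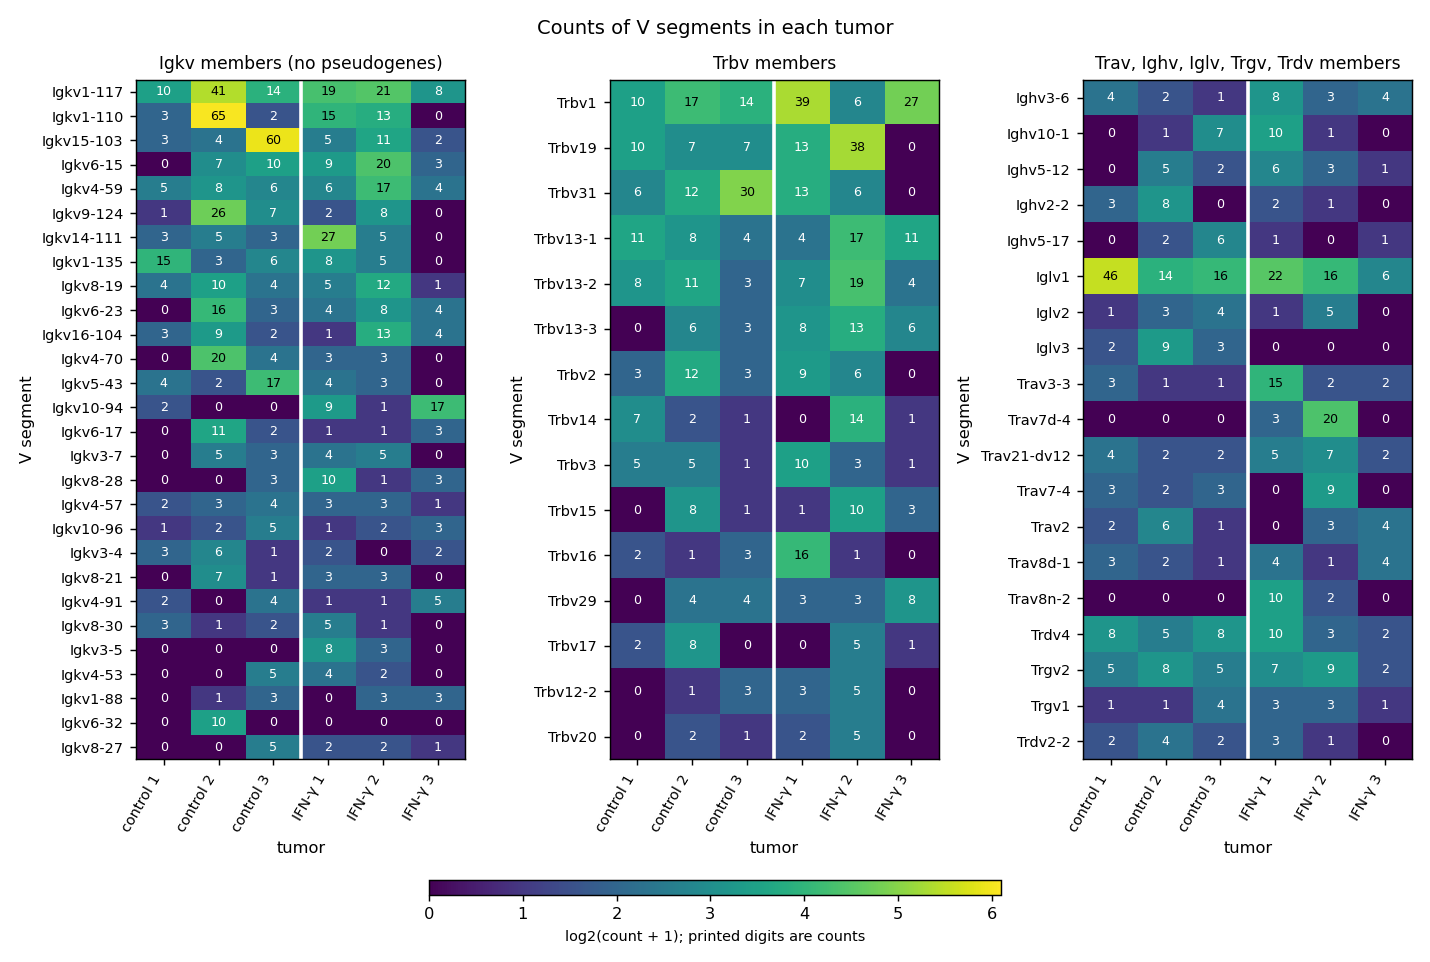
Counts of each V member in each tumor, for kappa segments without the pseudogenes (left), beta segments (middle) and all other V segments (right); color is log2(count + 1), printed digits are counts, and a white line parts control from IFN-γ tumors. In some rows 1 count is far above the rest, such as Igkv1-110 in control 2 (65) and Igkv15-103 in control 3 (60). Trbv19 in IFN-γ tumor 2 (38) is a further case. Other rows hold several high counts. Trbv1 has 39 in IFN-γ tumor 1 and 27 in IFN-γ tumor 3. Iglv1 has 46 in control 1 and 22 in IFN-γ tumor 1.

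Several beta V segments bear on strain and cell type. BALB/c mice delete many T cells with V beta 3, 5, 11 and 12 because of superantigens of endogenous retroviruses. The matching segments Trbv26, Trbv12-2, Trbv12-1, Trbv16 and Trbv15 took 4.62%, 9.62% and 8.86% of all beta V counts in the control tumors and 15.4%, 11.04% and 9.23% in the IFN-γ tumors, with overlap. The 15.4% in IFN-γ tumor 1 came mostly from Trbv16, with 16 counts there and 0 to 3 in each other tumor. Trbv26 had 1 count in all 6 tumors, and Trbv12-1 had 4. The V beta 8 family (Trbv13-1, Trbv13-2 and Trbv13-3) took 29.2%, 24.0% and 12.7% in the control tumors and 14.6%, 31.8% and 32.3% in the IFN-γ tumors. It was high and low in both groups.

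Alpha V segments gave the sparsest T cell data, with 7 of 130 rows as members. Trav7d-4 had 0 counts in every control tumor and 3, 20 and 0 in the IFN-γ tumors. Its near copy Trav7-4 had 3, 2 and 3 counts in the control tumors and 0, 9 and 0 in the IFN-γ tumors, so reads may have been divided between them. Trav3-3 had 15 of its 24 counts in IFN-γ tumor 1, and Trav8n-2 had 10 of 12 there. The higher Trav sum of the IFN-γ group thus came largely from a few segments in tumors 1 and 2. None of the 7 was abundant enough to be tested.

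Segments of innate-like T cells had few counts, apart from Trdv4. Trav11 and Trav11d, the alpha segments of invariant natural killer T cells, and Trgv5, the gamma segment of skin-resident gamma delta T cells, had 0 counts in all tumors. A count of 0 allows up to 0.171 to 0.190 CPM per tumor, counting error only. Trav1, the alpha segment of mucosal-associated invariant T cells, had 2 counts, and Trgv6, which mucosal and dermal gamma delta T cells use, had 3. Trdv4, on the same list, had 8, 5 and 8 counts in the control tumors and 10, 3 and 2 in the IFN-γ tumors, or 18.8 to 50% of the gamma and delta V counts. With 36 counts it shared the first place among them with Trgv2. Trgv2 had 2 to 9 counts a tumor, and Trgv1 and Trdv2-2 summed to 13 and 12 counts.

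Many V segments had most of their counts in a single tumor. Of the 62 V members with 10 to 120 counts, 26 (41.9%) had 50% or more of their counts in 1 tumor, and the median over the 62 was 42.3%. Among 5442 genes of the same range of total counts that were no receptor segment, 410 (7.53%) did so, with a median of 30.0%. Only the range was matched, and the median total was 22 counts for the V members and 30 for the other genes. Igkv6-32 had all of its 10 counts in control 2. Trav7d-4 had 87.0% of its counts in IFN-γ tumor 2, Trbv16 had 69.6% in IFN-γ tumor 1, Igkv15-103 had 70.6% in control 3 and Igkv1-110 had 66.3% in control 2. These 26 segments were spread over the groups, with 9 in control 2, 4 in control 3, 7 in IFN-γ tumor 1, 5 in IFN-γ tumor 2, 1 in IFN-γ tumor 3 and 0 in control 1. Segments of 1 clone and near copies share reads or cells, so the 62 are not independent, and the comparison is a description.

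**Figure D4:**
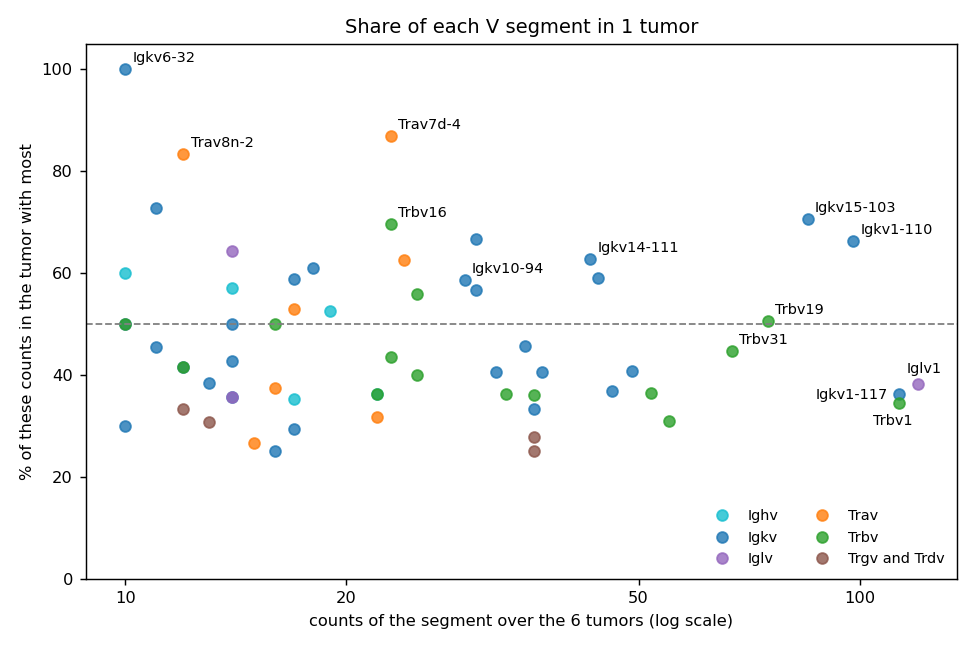
Percent of a V segment's counts that lay in the tumor with most, against its counts over the 6 tumors (log scale), for 62 V members colored by class; the dashed line is at 50%. At or above the line lie 26 segments, including well counted ones such as Igkv1-110, Igkv15-103 and Trbv19, while Trbv1, Igkv1-117 and Iglv1 lie below it.

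No member passed the test across all genes. The edgeR quasi-likelihood test with Benjamini-Hochberg adjustment covered 15114 genes, and 21 of the 79 members had enough counts to enter. None of the 21 passed an adjusted p of 0.05 in either direction, and 0 had an unadjusted p under 0.05. DESeq2 called 0 of the 15 members to which it gave an adjusted p. Over all members with a p-value from DESeq2, 2 had an unadjusted p under 0.05. Over all genes tested, 0.0794% passed as higher and 0.0331% as lower in the IFN-γ group, so at that rate a list of 21 genes would hold few or no calls. The fold changes of the members were above 0 for 10 and below 0 for 11, with a median of -0.20 on the log2 scale against 0.0015 for all genes. The sign of this median turned only in settings that also changed the members covered. It was 0.16 over all 79 members without the filter. By DESeq2, which also gives fold changes to members below the filter, it was 0.16. It was 0.050 without control 1 (24 members), 0.33 without control 2 (24 members) and 0.11 without IFN-γ tumor 3 (25 members). Other omissions left it below 0. Over the same 21 members it was -0.24 by library size only, -0.21 with upper-quartile factors, -0.18 by limma-voom and -0.19 with the replicate block. All 8 T cell receptor members tested but Trbv31 lay above 0. The groups overlapped in CPM for each of the 21, while 7.63% of all genes were higher and 7.5% lower without overlap. The members varied more between tumors of a group than most genes did, with a median biological coefficient of variation of 0.42 against 0.126 for all genes tested.

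**Figure D5:**
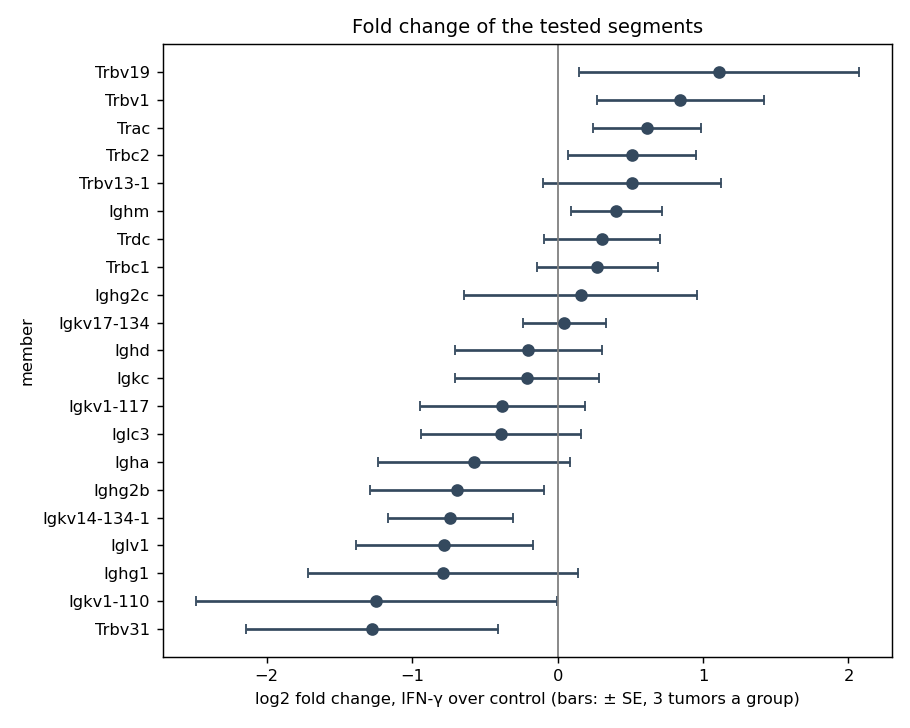
Log2 fold change (IFN-γ over control) of the 21 members that entered the edgeR test, in order, with bars of ± SE (3 tumors a group). The values run from -1.28 for Trbv31 to 1.11 for Trbv19, and none passed the adjusted threshold.

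The listed genes that build and read these receptors gave no calls either. Some had a lower adjusted p than any member, such as the Fc receptor gene Fcgr4 (edgeR adjusted p = 0.23, against 0.61 for the lowest member). Of the 12 listed genes of the T cell receptor complex and its signalling, 12 were tested, 0 passed, and all 12 had fold changes above 0. Cd3g, a signalling chain of the T cell receptor, had 149, 230 and 227 counts in the control tumors and 309, 388 and 152 in the IFN-γ tumors (log2 fold change 0.53, edgeR adjusted p = 0.61). IFN-γ tumor 3 lay at the level of control 1 for Cd3g, with 9.39 and 9.30 CPM, while it was below every control for Trac and Trbc2. A list of 12 T cell markers summed to 116 to 142 CPM in the control group and to 165, 202 and 78.1 CPM in the IFN-γ tumors. The median log2 fold change of the receptor complex list was 0.40, against 0.0015 for all genes.

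B cell genes were split. Of 12 B cell markers 8 were tested and 0 passed, with 4 fold changes above 0, and the list summed to 30.7 to 39.3 CPM in the control group and 23.7 to 39.7 CPM in the IFN-γ group. The defining transcription factor Pax5 had 38, 56 and 34 counts in the control tumors and 6, 22 and 4 in the IFN-γ tumors, and the groups did not overlap (log2 fold change -1.94, edgeR adjusted p = 0.32). Ms4a1, which encodes CD20, had 11, 40 and 26 counts against 4, 12 and 3 (log2 fold change -1.94, edgeR adjusted p = 0.36). Other markers of the list were above 0. Cd79b, a signalling chain of the B cell receptor, had 3.66 to 4.06 CPM in the control group and 4.64 to 5.62 CPM in the IFN-γ group, without overlap (log2 fold change 0.38, edgeR adjusted p = 0.55). Cd22 and Cd37 had log2 fold changes of 0.33 and 0.25. Ighm and Igkc had log2 fold changes of 0.40 and -0.21. Cxcl13, the chemokine that draws B cells into follicles, had 176, 569 and 371 counts in the control tumors and 103, 224 and 47 in the IFN-γ tumors (log2 fold change -1.51, edgeR adjusted p = 0.39). Of 12 plasma cell genes 10 were tested and 0 passed, and their sum was 398 to 454 CPM in the control group and 411 to 428 CPM in the IFN-γ group. Xbp1, Creld2 and Edem1, which many secretory cells express, each had 1439 or more counts in every tumor, against 26 to 217 for Jchain. Of 12 genes of the B cell receptor complex and its signalling 10 were tested, 0 passed and 8 had fold changes above 0.

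Among genes that bind or carry antibody, 7 of 10 were tested and 0 passed. Fcgr4, an activating receptor for IgG on myeloid cells, had 674, 1234 and 1080 counts in the control tumors and 2593, 2375 and 1293 in the IFN-γ tumors (log2 fold change 1.11, edgeR adjusted p = 0.23). Fcer1g, the signalling chain shared by Fc receptors, had a log2 fold change of 0.57 (edgeR adjusted p = 0.26). Pigr, which carries IgA and IgM across epithelia, was at 0 in every tumor. Rag1 and Rag2, the enzymes that join V segments in developing lymphocytes, and Igll1, a surrogate light chain of precursor B cells, were also at 0.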

How the data were processed

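RNA-seq was available for 6 subcutaneous tumors, 3 of each group. The authors deposited raw counts, which are whole numbers of reads per gene without normalization. HISAT2 and mm10 are named in the submitters' processing notes. The counting program, the strand setting and the treatment of reads with several matches are not given in the sources used here, so overlapping and near-identical segments are uncertain. The replicates are single tumors.

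All 55487 rows entered the fit. edgeR 4.0.16 (R 4.3.3) was run with TMM factors and filterByExpr at its defaults. The quasi-likelihood test was adjusted by Benjamini-Hochberg over 15114 genes, with a threshold of 0.05. The SE of a log2 fold change was obtained from the fold change and F. DESeq2 1.42.0, limma 3.58.1 (voom), other scalings, no filter on low counts, a block for the replicate number and the omission of each tumor were alternatives. Same-numbered tumors did not deviate together (r = -0.205, -0.0135 and -0.214), and no pairing was assumed.

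Sums, shares and effective numbers over members were described without a test. Intervals are 95% exact binomial ones, from SciPy 1.17.1, and they cover counting error only. Coordinates, exon lengths and sequences came from GENCODE mouse release 21 (GRCm38), in which 99.4% of the row identifiers were found. The scripts were tested on simulated data.

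The members and gene lists were chosen with earlier results of these data known. Named were all constant regions, the leading 5 segments of each V class, the leader in each tumor, segments over 10% of their class in a tumor, the 5 tested members with the smallest p in each direction, and fixed lists of V segments. The treatment of the pseudogenes was chosen after seeing the data.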

Additional observations from a re-analysis of the deposited data

How the results depend on the processing

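The number of members past the threshold was 0 under all 12 alternatives, including the omission of each tumor (0 to 0), DESeq2, limma-voom and no filter on low counts. With the replicate block it was also 0, while the calls over all genes numbered 7, against 17 in the main fit. Members with an unadjusted p under 0.05 numbered from 0 to 7, with 7 of 79 without the filter and 6 of 25 without IFN-γ tumor 3. Over all genes, calls numbered 17, and 6 to 493 over these alternatives, with 195 by DESeq2, 220 without the filter and 493 without IFN-γ tumor 3. Of 172 alternatives over all results, 165 stayed within the spread between tumors and 7 moved beyond it; the cause was not tested except where the alternative itself sets it. The log2 ratio of the summed heavy constants, 0.23, became -0.56 when the most abundant segment of each tumor, Ighm, was left out. The log2 ratio of the effective number became 0.57 for Igkv without the pseudogenes (main -0.26), -0.52 for Ighv with all segments of 1 or more counts (main 0.24), and for Trav (main -0.53) -0.89 with all such segments, -0.18 with plain squared shares and -0.16 with the share of the leading segment. Over the omissions of 1 tumor, the log2 ratio of the summed Ighv level ran from -0.88 to 0.38, the lowest without IFN-γ tumor 1. Classes with 6 to 44 counts a tumor, Ighv and Trav, are limited by counting error, and the effective number can be too high at such depths. For Trav in control 3 it was 7.0 on 8 counts, above the 5 segments seen there.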

Other observations

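Genes of germinal centres, where B cells mutate and switch their receptors, gave no calls. Of 10 listed genes 7 were tested and 0 passed, and 5 had fold changes above 0. Ung, a DNA glycosylase used in class switching and in general DNA repair, had 214, 215 and 215 counts in the control tumors and 278, 275 and 275 in the IFN-γ tumors (log2 fold change 0.40, edgeR adjusted p = 0.31). Cxcr5, the receptor for Cxcl13, had 3, 19 and 17 counts against 4, 13 and 4 (log2 fold change -0.82, edgeR adjusted p = 0.76).

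Of 10 genes of B cell survival and the plasma cell niche 9 were tested and 0 passed. Tnfrsf17, the survival receptor of plasma cells, had 24, 19 and 28 counts in the control tumors and 7, 13 and 15 in the IFN-γ tumors (log2 fold change -0.97, edgeR adjusted p = 0.45). Its related receptor Tnfrsf13b had 180, 178 and 198 counts in the control tumors and 256, 302 and 180 in the IFN-γ tumors (log2 fold change 0.45, edgeR adjusted p = 0.48).

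Genes of CD8+ and CD4+ T cells differed in their order over the tumors. Cd8a, a chain of the CD8 coreceptor, had 190, 354 and 219 counts in the control tumors and 516, 424 and 174 in the IFN-γ tumors (log2 fold change 0.59, edgeR adjusted p = 0.63). Cd4, the coreceptor of helper T cells, had 7.06, 9.57 and 12.6 CPM in the control tumors and 11.5, 15.9 and 4.69 CPM in the IFN-γ tumors (log2 fold change 0.14, edgeR adjusted p = 0.94). A list of 7 natural killer cell genes summed to 55.9 to 96.0 CPM in the control group and to 132, 144 and 46.9 CPM in the IFN-γ tumors, with 0 of 7 genes past the threshold. Gamma delta and innate-like T cell genes gave 10.3 to 14.1 CPM in the IFN-γ group and 13.0 to 16.1 CPM in the control group. Sox13 alone gave 5.31 to 8.21 and 8.39 to 11.1 CPM of these, and 4 of the 5 tested genes had fold changes above 0, with 0 past the threshold. Genes of lymphoid tissue stroma gave 18.7 to 45.8 CPM in the IFN-γ group and 31.8 to 57.2 CPM in the control group.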
